A study of Mus musculus with 14 samples.

Results

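The 9 genes described here encode the transcription factors through which the liver clock passes its rhythm on to metabolism: the REV-ERB receptors Nr1d1 and Nr1d2, their counterpart Rora, the PAR bZIP activators Dbp, Tef and Hlf, their repressor Nfil3, and the repressors Bhlhe40 and Bhlhe41. They were chosen by symbol, were matched through Ensembl identifiers in the authors' deposited tables, and are 9 of 37681 genes counted. All 9 passed the filter on low counts, which kept 17223 genes. The series holds 14 libraries of polyadenylated liver RNA, each taken here as 1 mouse. HFHS mice (7) ate feed rich in fat and sucrose, and LFLS mice (7) ate feed low in both. Sample titles begin with 2 or with 1, a number whose meaning the labels do not give. Title number 2 holds 3 HFHS and 3 LFLS mice (HFHS 5 to 7 and LFLS 5 to 7), and title number 1 holds 4 of each diet (HFHS 1 to 4 and LFLS 1 to 4). The sources used here do not state the strain, sex or age of the mice, how long they were fed, or the hour at which livers were taken.

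In the clock of mammals, the activators CLOCK and BMAL1 bind E-boxes and switch on their own repressors along with Nr1d1, Nr1d2, Dbp and the Bhlhe genes. REV-ERB proteins bind haem and recruit the NCoR and HDAC3 corepressors to ROR elements, where ROR proteins activate, so the gene for BMAL1 and other targets cycle in the opposite phase. DBP, TEF and HLF activate genes with D-boxes, many of them for detoxification and bile acid synthesis in liver, and NFIL3 represses through the same sites. Most of these transcripts vary over the day in mouse liver, those of Nr1d1 and Dbp steeply.

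Levels are given as CPM, the share of a library's counts scaled by the TMM method. The promoter windows of the 4 genes with the steepest changes below that have a RefSeq entry are shown to place the motifs of the clock, each window running from 250 bases before to 50 bases after the annotated start. Coordinates are of build GRCm38.p6, which is not the build of the authors' counting (mm9), and all 4 windows are read 5′ to 3′ on the strand of the gene. The windows are chr11:98775328-98775627 on the minus strand for Nr1d1, chr7:45704997-45705296 on the plus strand for Dbp, chr6:145865371-145865670 on the minus strand for Bhlhe41 and chr13:52980990-52981289 on the minus strand for Nfil3. Capitals mark a match to a searched motif.
Nr1d1: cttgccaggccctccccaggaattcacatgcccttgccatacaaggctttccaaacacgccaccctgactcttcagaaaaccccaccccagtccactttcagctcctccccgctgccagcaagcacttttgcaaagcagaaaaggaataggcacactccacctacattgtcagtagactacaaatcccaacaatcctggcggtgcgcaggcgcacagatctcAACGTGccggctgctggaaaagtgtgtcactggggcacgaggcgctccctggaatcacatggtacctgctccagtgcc
Dbp: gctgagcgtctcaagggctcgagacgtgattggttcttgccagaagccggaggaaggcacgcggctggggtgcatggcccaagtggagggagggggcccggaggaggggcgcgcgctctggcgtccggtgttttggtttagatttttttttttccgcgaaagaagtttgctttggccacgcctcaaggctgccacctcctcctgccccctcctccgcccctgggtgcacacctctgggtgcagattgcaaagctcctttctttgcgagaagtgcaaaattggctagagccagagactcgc
Bhlhe41: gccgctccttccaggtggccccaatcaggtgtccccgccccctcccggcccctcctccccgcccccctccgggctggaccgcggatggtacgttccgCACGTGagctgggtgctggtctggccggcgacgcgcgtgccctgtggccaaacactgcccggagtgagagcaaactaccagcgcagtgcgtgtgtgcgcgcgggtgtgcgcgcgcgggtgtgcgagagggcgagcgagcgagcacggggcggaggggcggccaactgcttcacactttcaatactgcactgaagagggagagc
Nfil3: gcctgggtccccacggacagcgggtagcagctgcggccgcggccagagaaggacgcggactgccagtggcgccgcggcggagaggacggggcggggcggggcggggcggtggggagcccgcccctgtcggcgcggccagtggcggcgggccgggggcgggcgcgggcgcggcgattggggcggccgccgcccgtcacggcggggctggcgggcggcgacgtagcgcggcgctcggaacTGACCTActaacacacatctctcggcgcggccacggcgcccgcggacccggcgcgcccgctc
The motifs searched on both strands were the E-box CACGTG, its variant CACGTT, the D-box forms TTATGTAA and TTACGTAA, and the ROR element core TAGGTCA, and no matches overlapped one another. In Nr1d1 the capitals are the E-box variant read on the other strand, with its first base at position -28 from the start. In Bhlhe41 they are an E-box at -153, and in Nfil3 the ROR element core on the other strand at -12. The Dbp window held none of the 5 motifs, and neither did the windows of Nr1d2, Rora and Hlf. Tef has 2 annotated starts, with an E-box at -127 from one and at -138 from the other. Of 32544 mouse promoter windows of the same length, 7.17% held CACGTG, 4.71% held CACGTT, 2.61% held the ROR element core, 0.931% held TTATGTAA and 0.12% held TTACGTAA.

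Per kilobase of annotated exon, the mean level over the 14 libraries was highest for Bhlhe40, at 40.2 ± 7.99 CPM per kb (SD, n = 14), and lowest for Bhlhe41, at 0.766 ± 0.437 CPM per kb. Dbp (27.2 ± 13.1), Tef (25.5 ± 3.99), Nr1d2 (23.6 ± 4.69) and Nr1d1 (21.1 ± 20.2 CPM per kb) stood next to each other in this order. Nfil3 (10.7 ± 4.38), Hlf (9.82 ± 1.64) and Rora (7.44 ± 1.49 CPM per kb) followed. Neighbours in this order overlapped within 1 SD of their means, except Bhlhe41 below Rora. Nr1d1 spanned 40.0-fold between its highest and lowest library, Dbp 8.69-fold and Bhlhe41 7.05-fold, while Hlf, Bhlhe40 and Tef spanned 1.72-fold, 1.73-fold and 1.78-fold.

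**Figure D1:**
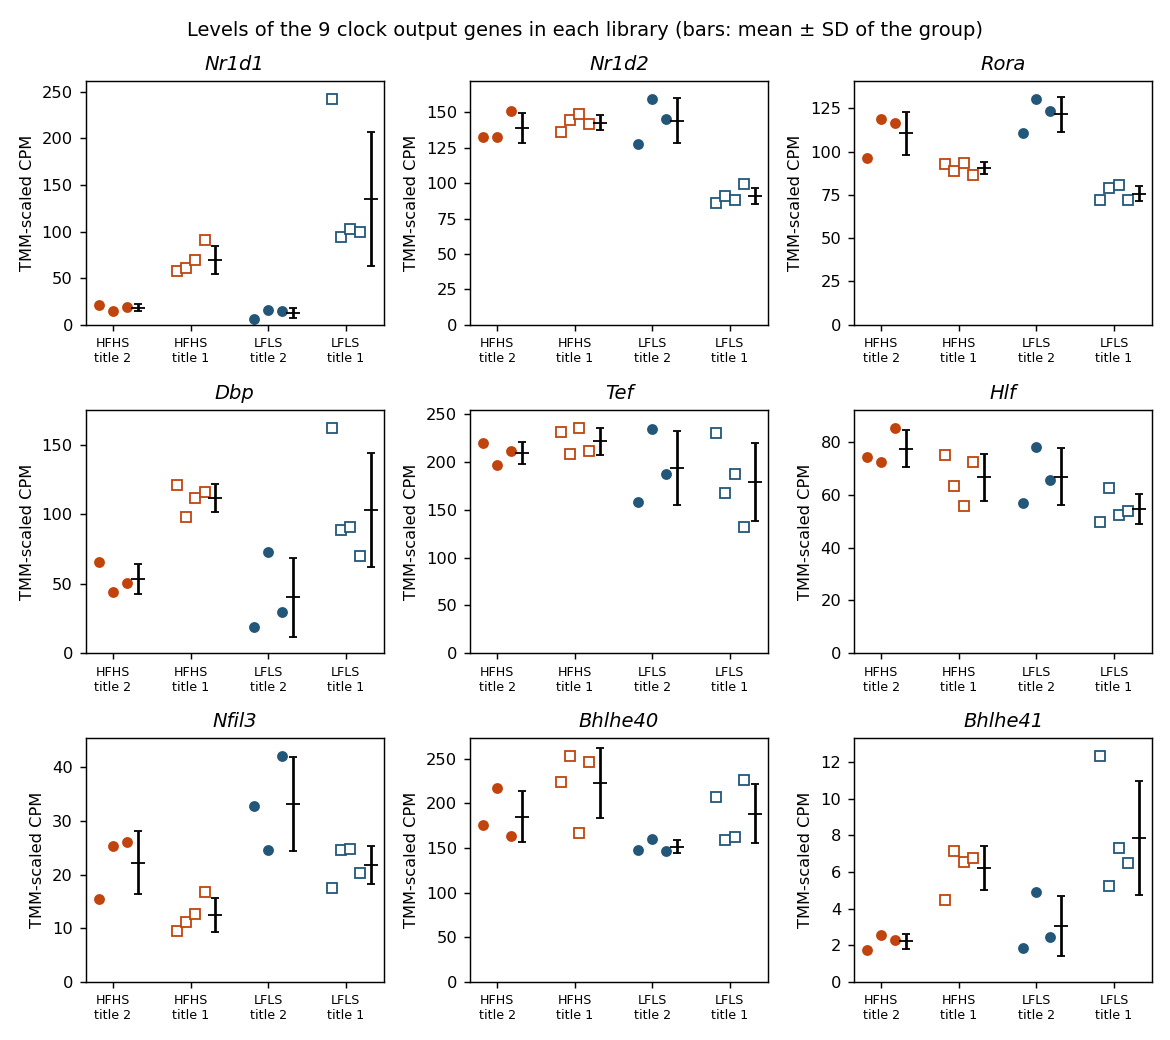
TMM-scaled CPM of each of the 9 genes (vertical axes, each from 0) in the 14 libraries, by diet and title number, with filled circles for title number 2, open squares for title number 1, and bars for the mean ± SD of each group of 3 or 4 mice. Nr1d1 lies between 6.05 and 21.4 CPM in title number 2 and between 57.8 and 242 CPM in title number 1, and Nr1d2 is low, at 86.3 to 99.1 CPM, in the 4 LFLS mice of title number 1.

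Livers of title number 2 had less Nr1d1, Dbp and Bhlhe41 and more Nfil3, Rora, Nr1d2 and Hlf than livers of title number 1. Of the 9 genes, 7 passed the test, 4 higher and 3 lower, against 28.8% of all genes tested (edgeR quasi-likelihood test with diet as a covariate, Benjamini-Hochberg adjusted p under 0.05). Nr1d1 and Rora did not overlap between the title numbers, which holds for 5.81% of all genes. The median size of the log2 change was 0.49 over the 9 genes and 0.26 over all genes tested. These are differences between sets of mice that the labels tell apart by a number only.

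Nr1d1, which encodes REV-ERBα, lies at chr11:98767932-98775333 on the minus strand (GENCODE M21, GRCm38, as for the other genes here). In HFHS mice it had 21.4, 14.5 and 19.4 CPM in title number 2 and 57.8, 60.8, 69.3 and 90.5 CPM in title number 1. In LFLS mice it had 6.05, 16.2 and 14.8 CPM in title number 2 and 242, 94.3, 102 and 99.9 CPM in title number 1. Every title number 2 library was thus below every title number 1 library in both diets, and LFLS 1 stood far above all others. The log2 change was -2.66 ± 0.35 (SE, adjusted p = 0.000537), a level 6.30-fold lower in title number 2, and without LFLS 1 it was -2.42 (adjusted p = 0.00018). Nr1d1 shares 263 bases, or 8.55% of its exons, with Thra on the opposite strand, the gene of thyroid hormone receptor α, and the labels do not say that the library kit keeps strand. Thra itself fell, by 0.92 ± 0.10 on the log2 scale (adjusted p = 0.000244), to 14.8 ± 1.76 CPM in title number 2 (n = 6), against 28.2 ± 3.95 CPM in title number 1 (n = 8). The log2 ratio of Nr1d1 to Thra counts ran from -0.995 to 0.421 in title number 2 and from 1.23 to 2.79 in title number 1, without overlap, so the counts of the 2 genes changed unequally.

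Nr1d2, which encodes REV-ERBβ (chr14:18204054-18239127, minus strand), separated the title numbers in LFLS mice and overlapped between them in HFHS mice. In HFHS mice it had 133, 132 and 151 CPM in title number 2 and 136, 145, 149 and 142 CPM in title number 1. In LFLS mice it had 128, 159 and 145 CPM in title number 2 and 86.3, 90.7, 88.0 and 99.1 CPM in title number 1. Only the 4 LFLS mice of title number 1 were low, and the other 10 libraries lay between 128 and 159 CPM. The same 4 libraries were also the lowest for Rora, at 71.8 to 80.4 CPM, and the highest for Nr1d1, at 94.3 to 242 CPM. In the other 10, Rora was at 86.7 CPM or more and Nr1d1 at 90.5 CPM or less. The 4 libraries stood apart in mitochondrial share and in Kupffer cell and macrophage markers as well. Mitochondrial genes took 1.39%, 3.41%, 2.49% and 3.77% of their counts, against 4.24% to 5.10% in the other 10, and 7 Kupffer cell and macrophage markers summed to 410 to 436 CPM in them, against 188 to 403 CPM. The part of either in the Nr1d2 pattern was not tested. The log2 ratio of Nr1d1 to Nr1d2 counts, from -4.40 to -2.64 in title number 2 and from -1.25 to 1.49 in title number 1, did not overlap, and neither did Nr1d1 alone. The pooled log2 change of 0.32 ± 0.11 just passed the test (adjusted p = 0.0499), but it was -0.04 in HFHS mice alone (adjusted p = 0.823) and 0.71 in LFLS mice alone (adjusted p = 0.00601). It kept its call in 4 of the 14 fits that leave out 1 library, those without HFHS 2, HFHS 3, HFHS 5 or HFHS 6, and lost it with library totals (adjusted p = 0.178), with limma voom (adjusted p = 0.0894) and without a filter (adjusted p = 0.28).

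Rora, which encodes the activator RORα (chr9:68653786-69388246, plus strand), rose. It had 96.3, 119 and 116 CPM in title number 2 HFHS mice against 92.8, 89.0, 93.5 and 86.7 CPM in title number 1 HFHS mice, and 111, 130 and 123 CPM against 71.8, 78.9, 80.4 and 72.0 CPM in LFLS mice. All title number 2 libraries were above all of title number 1, by the narrowest margin in HFHS 5. The log2 change was 0.49 ± 0.08 (adjusted p = 0.00227) over both diets, 0.29 in HFHS mice alone (adjusted p = 0.142) and 0.73 in LFLS mice alone (adjusted p = 0.00466).

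Among the PAR bZIP activators, Dbp (chr7:45705088-45710203, plus strand) fell, Hlf rose slightly and Tef did not pass the test. In HFHS mice Dbp had 65.2, 44.1 and 50.6 CPM in title number 2 and 121, 97.7, 112 and 116 CPM in title number 1. In LFLS mice it had 18.7, 72.5 and 29.6 CPM in title number 2 and 162, 88.8, 91.0 and 69.6 CPM in title number 1. The HFHS groups did not overlap, whereas among LFLS mice LFLS 6 of title number 2 was just above LFLS 4 of title number 1. The log2 change was -1.21 ± 0.26 (adjusted p = 0.00606), with -1.06 in HFHS mice alone (adjusted p = 0.0279) and -1.31 in LFLS mice alone (adjusted p = 0.0616). Dbp shares 539 bases, or 18% of its exons, with the opposite-strand Sphk2, a sphingosine kinase gene, which also fell, by 0.56 ± 0.13 on the log2 scale (adjusted p = 0.00775). Reads from the shared bases cannot be told apart unless the library kit keeps strand, which the labels do not say.

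Tef (chr15:81802421-81826863, plus strand) had 201 ± 27.0 CPM in title number 2 and 200.3 ± 36.2 CPM in title number 1 (SD, n = 6 and 8), a log2 change of 0.02 ± 0.12 (adjusted p = 0.930). Hlf (chr11:90336536-90390895, minus strand) had a median of 73.4 CPM, from 57.0 to 85.5, in title number 2 and a median of 59.0 CPM, from 49.7 to 74.9, in title number 1. The groups overlapped widely, and the log2 change of 0.26 ± 0.09 passed narrowly (adjusted p = 0.0498). That call stood in 6 of the 14 fits that leave out 1 library, those without HFHS 1, HFHS 4, HFHS 5, HFHS 6, LFLS 2 or LFLS 5, and in neither diet alone. It was lost with library totals (adjusted p = 0.298) and without a filter (adjusted p = 0.236).

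Nfil3, the D-box repressor (chr13:52967209-52981073, minus strand), rose while Dbp fell. In HFHS mice it had 15.5, 25.2 and 26.0 CPM in title number 2 and 9.45, 11.1, 12.6 and 16.8 CPM in title number 1. In LFLS mice it had 32.9, 24.5 and 42.1 CPM in title number 2 and 17.4, 24.6, 24.8 and 20.4 CPM in title number 1. In each diet 1 title number 2 library, HFHS 5 or LFLS 6, lay within the range of title number 1. The log2 change was 0.72 ± 0.16 (adjusted p = 0.00701), with 0.84 in HFHS mice alone (adjusted p = 0.116) and 0.65 in LFLS mice alone (adjusted p = 0.0371). The log2 ratio of Dbp to Nfil3 counts was -0.82 to 2.08 in title number 2 and 1.77 to 3.67 in title number 1, and only HFHS 5 of title number 2 lay inside the range of title number 1.

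Of the E-box repressors, Bhlhe41 fell and Bhlhe40 did not pass. Bhlhe41 (DEC2, chr6:145858243-145865558, minus strand) had 1.75, 2.56 and 2.29 CPM in title number 2 HFHS mice against 4.47, 7.16, 6.55 and 6.74 CPM in title number 1 HFHS mice, and 1.84, 4.89 and 2.42 CPM against 12.3, 5.23, 7.33 and 6.51 CPM in LFLS mice. Within each diet the title numbers did not overlap, although LFLS 6 of title number 2 was above HFHS 1 of title number 1. These are low levels, resting on 32 to 471 counts per library, and 19% of the exons of Bhlhe41 overlap Gm43909, an unconfirmed transcript on the opposite strand. The log2 change was -1.43 ± 0.24 (adjusted p = 0.00182). Bhlhe40 (DEC1, chr6:108660629-108666925, plus strand) had 168 ± 26.0 CPM in title number 2 and 205 ± 38.3 CPM in title number 1, a log2 change of -0.29 ± 0.11 (adjusted p = 0.0694). It passed without HFHS 3 (-0.35, adjusted p = 0.0264) and with library totals (-0.41, adjusted p = 0.0142).

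**Figure D2:**
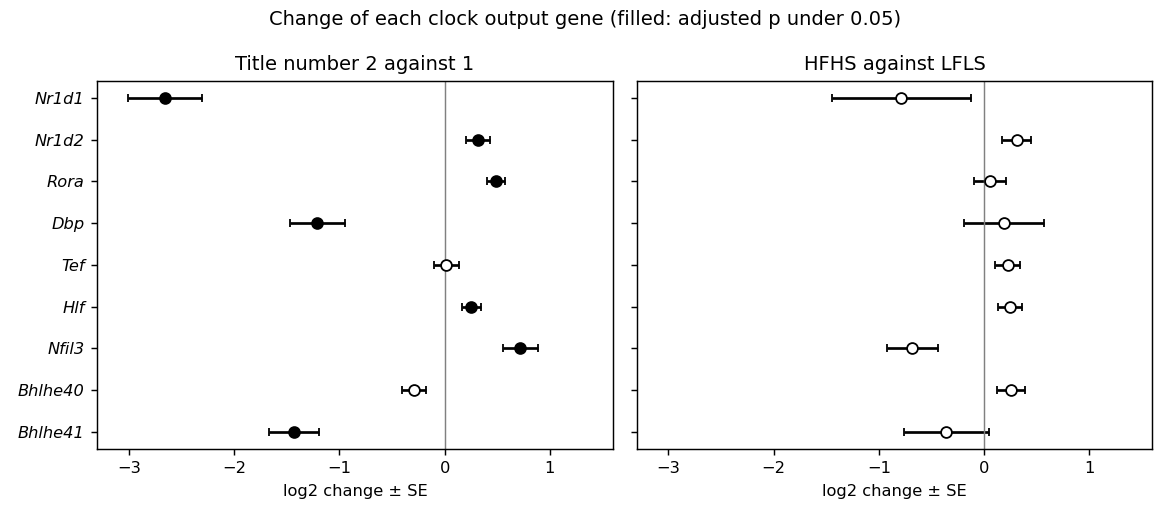
Log2 change ± SE of each of the 9 genes (horizontal axes) for title number 2 against 1 with diet as a covariate (left) and for HFHS against LFLS (right), with filled circles for an adjusted p under 0.05. On the left 7 circles are filled, from -2.66 for Nr1d1 to 0.72 for Nfil3, and on the right none is.

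The calls of Nr1d1, Rora, Dbp, Nfil3 and Bhlhe41 stood in all 14 fits that leave out 1 library, and in the fit without LFLS 1 and LFLS 2 together. Some other features of the libraries also differed between the title numbers, not always in both diets. Of 7 Kupffer cell and macrophage markers, 4 fell (Clec4f, Cd5l, Emr1 and Csf1r), against 28.8% of all genes called. The other 3 did not pass (Cd68 -0.57, Vsig4 -0.22 and Marco 0.34). The Emr1 call (adjusted p = 0.0419) stood in 4 of the 14 fits that leave out 1 library. In HFHS mice alone 0 of the 7 fell by the test, and in LFLS mice alone 4 did, against 31.2% of all genes. The list summed to 188 to 337 CPM in title number 2 and 271 to 436 CPM in title number 1. Of 7 hepatocyte markers, Tat and Cps1 rose and 5 did not pass, a called share near the 28.8% of all genes. The hepatocyte list summed to 79366 to 114309 CPM in title number 2 and 55981 to 98589 CPM in title number 1, with overlap. Endothelial and stellate cell lists had 2 of 6 members lower each, and bile duct (Sox9) and lymphocyte (Cd3e) lists 1 each of 5 and 6, shares near or below the 28.8% of all genes. Leaving out 1 library gave 0 to 3 lower endothelial markers, 1 or 2 stellate, 0 or 1 bile duct and 0 to 3 lymphocyte markers, and the calls of Pecam1, Stab2, Col1a1 and Sox9 stood in 6 of the 14 fits each and that of Cd3e in 2. The call of the stellate marker Des (-0.60, adjusted p = 0.0143) stood in all 14. No marker of these lists was at the lowest count in every library. The part of these differences in the changes above was not tested, and in whole liver a loss of cells of a type cannot be told apart from less RNA per cell. The exocrine pancreas list summed to 15.9 to 412 CPM in title number 2 and 16.4 to 1543 CPM in title number 1, with the top value in LFLS 2. Libraries held 18219257 to 45409902 counts in HFHS mice and 18286602 to 52826695 in LFLS mice. In title number 2 mitochondrial genes took 4.68% to 5.05% of counts in HFHS and 4.32% to 4.91% in LFLS mice, and in title number 1 they took 4.24% to 5.10% in HFHS and 1.39% to 3.77% in LFLS mice. The 4 LFLS mice of title number 1 were thus all below the other 10, and the lowest, LFLS 1, had the most Nr1d1. Among HFHS mice alone 3 of the 9 genes passed, Nr1d1, Dbp and Bhlhe41, against 0.673% of all genes. In LFLS mice alone 5 passed, against 31.2%. The Kupffer cell sum in HFHS mice was 252 to 287 CPM in title number 2 and 271 to 403 CPM in title number 1. Its part in these calls was not tested.

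Between HFHS and LFLS mice 0 of the 9 genes passed the edgeR test at the adjusted threshold, against 2.81% of all genes. At an unadjusted p under 0.05, 3 of the 9 passed, against 19.6% of all genes. DESeq2 called 0 of the 9, against 7.3% of all genes, and limma voom with quality weights called 2, Nr1d2 (adjusted p = 0.00843) and Tef (adjusted p = 0.0130), against 19%. The median size of the log2 change was 0.26 over the 9 genes and 0.18 over all genes tested. Of the 3, Nfil3 was at 16.7 ± 6.60 CPM in HFHS and 26.7 ± 8.31 CPM in LFLS (SD, n = 7 each), a log2 difference of -0.68 ± 0.24 (adjusted p = 0.138). Nr1d2 was at 141 ± 7.52 CPM in HFHS and 114 ± 30.1 CPM in LFLS, a log2 difference of 0.31 ± 0.14 (adjusted p = 0.230). Hlf was at 71.2 ± 9.44 CPM in HFHS and 59.9 ± 9.82 CPM in LFLS, a log2 difference of 0.25 ± 0.11 (adjusted p = 0.238).

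The other genes did not reach an unadjusted p under 0.05. Their spread within a diet takes in the difference between title numbers, which is not a term of this fit. Nr1d1 had 47.7 ± 29.4 CPM in HFHS and 82.2 ± 82.8 CPM in LFLS, a log2 difference of -0.79 ± 0.66 (adjusted p = 0.538). Dbp had 86.6 ± 32.5 CPM in HFHS and 76.1 ± 47.1 CPM in LFLS, and Bhlhe41 had 4.50 ± 2.33 CPM in HFHS and 5.79 ± 3.51 CPM in LFLS. With title number as a covariate, log2 differences were -0.33 ± 0.32 for Nr1d1, 0.24 ± 0.25 for Dbp and -0.39 ± 0.23 for Bhlhe41. None was called. Tef, at 216 ± 13.6 CPM in HFHS and 185 ± 37.3 CPM in LFLS, and Bhlhe40, at 207 ± 38.0 CPM in HFHS and 173 ± 30.9 CPM in LFLS, had log2 differences of 0.22 ± 0.12 (adjusted p = 0.311) and 0.26 ± 0.13 (adjusted p = 0.303). Rora had a log2 difference of 0.06 ± 0.15 (adjusted p = 0.871).

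Within a title number the diets separated more clearly for some genes. Among the 8 mice of title number 1, the diets did not overlap for 4 of the 9 genes, Nr1d1, Nr1d2, Rora and Nfil3, against 22.9% of all genes. In these mice Nr1d2 was higher in HFHS by 0.67 ± 0.09 on the log2 scale (adjusted p = 0.0138), and Nfil3 lower, with a log2 difference of -0.79 ± 0.19 (adjusted p = 0.0388), 2 of the 9 against 8.49% of all genes. The diets of title number 1 also did not overlap in mitochondrial share, 4.24% to 5.10% in HFHS and 1.39% to 3.77% in LFLS, or in the Kupffer cell sum, 271 to 403 CPM in HFHS and 410 to 436 CPM in LFLS, whose part in these differences was not tested. Nr1d1 had a difference of -0.93 ± 0.30 (adjusted p = 0.0835) and Rora of 0.27 ± 0.09 (adjusted p = 0.0796). Among the 6 mice of title number 2, 0 of the 9 passed in edgeR, against 269 of the 17010 genes tested there. At an unadjusted p under 0.05, 2 of the 9 passed, Nfil3 and Bhlhe40, against 20.6% of all genes. There Nr1d1 had a difference of 0.57 ± 0.33, Nr1d2 of -0.05 ± 0.11 and Rora of -0.13 ± 0.11, each of the opposite sign, while Nfil3 had one of -0.57 ± 0.24 (adjusted p = 0.232). With the title number as a covariate over all 14 mice, Nfil3 was lower in HFHS by the test (log2 difference -0.71, adjusted p = 0.0180), the 1 of the 9 called, against 8.94% of all genes.

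**Figure D3:**
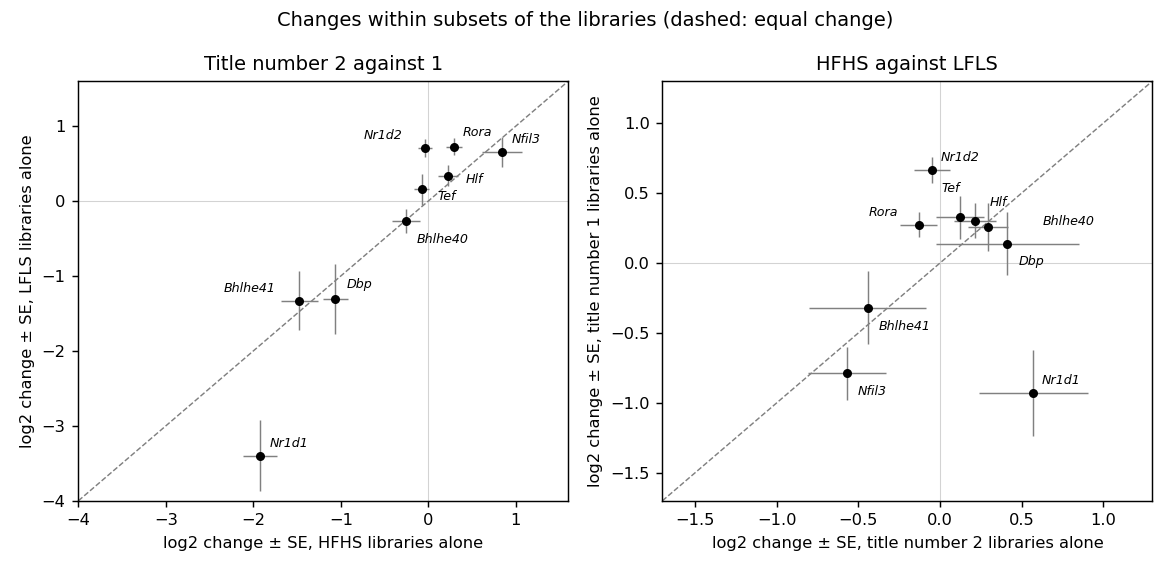
Log2 changes ± SE of the 9 genes for title number 2 against 1 within HFHS (horizontal) and LFLS mice (vertical) on the left, and for HFHS against LFLS within title number 2 (horizontal) and title number 1 (vertical) on the right, with equal change along the dashed line. Nr1d2 lies off the line in both panels, at -0.04 and 0.71 on the left and at -0.05 and 0.67 on the right.

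The test of the difference itself, the interaction of diet and title number, passed for 1 of the 9 genes, Nr1d2, against 0.883% of all genes. Its diet difference was smaller in title number 2 than in title number 1 by a log2 amount of -0.71 ± 0.13 (adjusted p = 0.0397). The size of this value held between -0.82 and -0.67 in the fits that leave out 1 library, but the call stood in only 3 of the 14, those without HFHS 1, LFLS 1 or LFLS 4, with an adjusted p of up to 0.143. It was lost with library totals (adjusted p = 0.0547) and without a filter (adjusted p = 0.0736), and DESeq2 (adjusted p = 7.43e-05) and limma voom (adjusted p = 0.00207) called it. DESeq2 also called Nr1d1 (1.52, adjusted p = 0.0282) and Rora (-0.40, adjusted p = 0.0411), 3 of the 9 against 8.68% of all genes, and limma voom also called Rora (-0.36, adjusted p = 0.0350), 2 of the 9 against 20.8%. The values of Nr1d1 and Rora in edgeR were 1.52 ± 0.51 (adjusted p = 0.108) and -0.39 ± 0.13 (adjusted p = 0.111). Of the related genes listed below, Ppargc1a (-1.45 ± 0.24, adjusted p = 0.0340) passed the same test, a call that stood in 4 of the 14 fits (without HFHS 1, HFHS 6, LFLS 1 or LFLS 4).

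Around the 9 genes, some genes of the clock loop and some known targets also passed the test between title numbers, and each list below is to be read against the 28.8% of all genes called. Of the called genes among all genes tested, 48.5% were higher in title number 2, but 21.1% with library totals in place of TMM, with which the median log2 change of all genes was -0.16, against -0.03 with TMM. Of 11 tested genes of the core loop, 3 rose, 1 fell and 7 did not pass, a called share near that of all genes. The number that rose was 2 to 6 when 1 library was left out, with 6 without LFLS 1 and 2 without LFLS 6, and Per2 (0.38, adjusted p = 0.0501) was called in 3 of the 14 fits and Per3 and Gm129 in 1 each. Cry1, a repressor of CLOCK and BMAL1, had 17.8 ± 2.89 CPM in title number 2 and 4.82 ± 1.68 CPM in title number 1 (SD, n = 6 and 8), a log2 change of 1.86 ± 0.20 (adjusted p = 0.000177). Arntl, the gene for BMAL1, had 8.53 ± 4.95 CPM in title number 2 and 3.34 ± 1.86 CPM in title number 1 (1.39 ± 0.24, adjusted p = 0.00204). The log2 ratio of Nr1d1 to Arntl counts separated the title numbers, as Nr1d1 alone did, at -1.44 to 2.33 against 3.94 to 6.26. Per1, a repressor of the loop, rose by 1.00 ± 0.30 (adjusted p = 0.0240), a call lost without LFLS 6. Csnk1e, a kinase of PER proteins, fell by 0.37 ± 0.12 (adjusted p = 0.0321), a call lost without HFHS 1 or LFLS 2, 3, 5, 6 or 7.

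The list of corepressors and cofactors of REV-ERB and ROR also holds enzymes of haem metabolism. Of its 9 genes, 4 rose, 0 fell and 5 did not pass, with the same counts in each of the 14 fits that leave out 1 library. Ppargc1a, the coactivator PGC-1α, had 29.0 ± 14.3 CPM in title number 2 and 10.9 ± 1.52 CPM in title number 1 (1.29 ± 0.22, adjusted p = 0.00225). Alas1, the first enzyme of haem synthesis, rose by 0.73 ± 0.16 (adjusted p = 0.00584), the haem oxygenase gene Hmox2 by 0.31 ± 0.08 and Tbl1xr1, a subunit of the NCoR complex, by 0.45 ± 0.12. Ncor1 and Hdac3 had log2 changes of 0.11 ± 0.07 and 0.02 ± 0.11 and did not pass.

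Of 14 tested REV-ERB and ROR targets, 4 rose, 1 fell and 9 did not pass, again near the share of all genes. Besides Arntl, Cry1 and Nfil3, already given, the glucose-6-phosphatase gene G6pc rose by 0.82 ± 0.17 (adjusted p = 0.00522). Fgf21, a liver hormone of fasting, fell to 4.75 ± 2.39 CPM in title number 2, against 13.8 ± 5.67 CPM in title number 1 (-1.48 ± 0.29, adjusted p = 0.00382). The lipid and bile acid genes Cyp8b1, Insig2, Apoc3, Apoa1 and Elovl3 lay between -0.16 and 0.57 and did not pass.

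Of 16 targets of the PAR bZIP factors, 10 rose, 0 fell and 6 did not pass, with a median log2 change of 0.76 against -0.03 over all genes tested. Cyp7a1, the rate-limiting enzyme of bile acid synthesis, had 429 ± 169 CPM in title number 2 and 196 ± 188 CPM in title number 1 (1.53 ± 0.44, adjusted p = 0.0201). Por, which passes electrons to cytochromes P450, had 590 ± 69.6 CPM in title number 2 and 344 ± 142 CPM in title number 1 (0.78 ± 0.21, adjusted p = 0.0144). The acyl-CoA thioesterase genes Acot1, Acot3 and Acot4 rose by 0.75 ± 0.18, 1.54 ± 0.41 and 0.88 ± 0.16, and the glutathione transferase gene Gsta3 by 0.50 ± 0.12. Alas1 and Per1 also belong here. Nr1i3, the xenobiotic receptor CAR, rose by 0.53 ± 0.17 (adjusted p = 0.0315), a call lost without HFHS 1, HFHS 7, LFLS 2, LFLS 5 or LFLS 7. Cyp2b10, a target of CAR, rose by 1.32 ± 0.45 (adjusted p = 0.0410), a call that stood only without HFHS 1, HFHS 5 or HFHS 7. In HFHS mice alone 1 of 16 passed, against 0.673% of all genes, and in LFLS mice alone 5 of the 15 tested there, near the 31.2% of all genes.

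**Figure D4:**
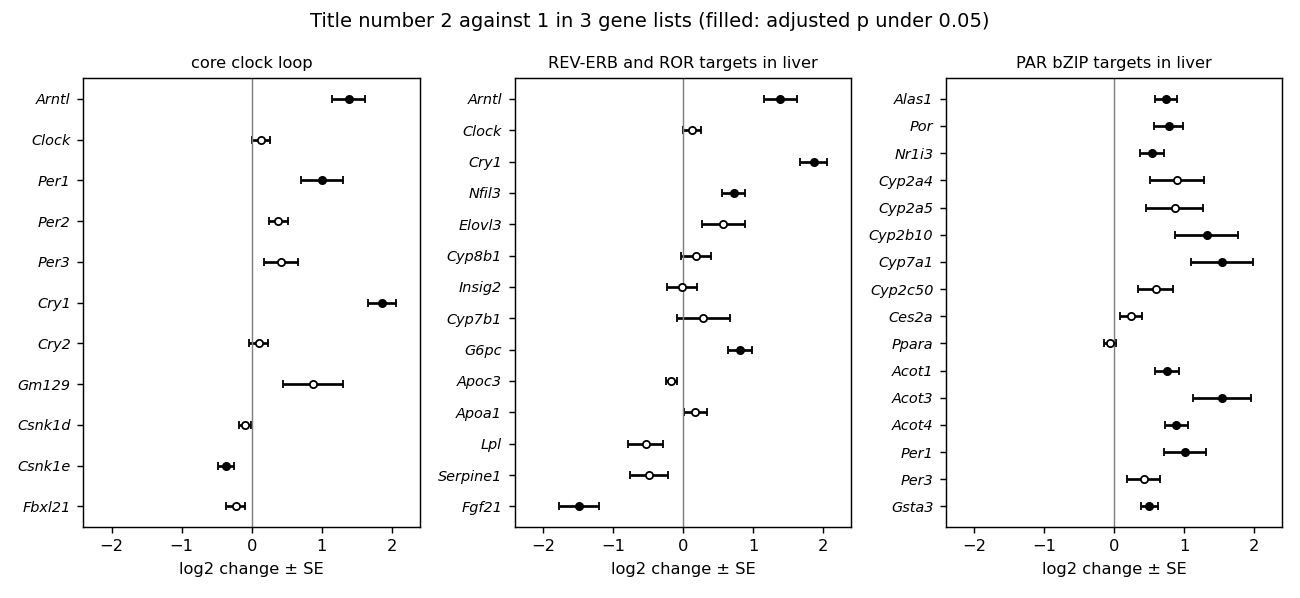
Log2 change ± SE for title number 2 against 1 (horizontal axes) of the tested genes of 3 lists, with filled circles for an adjusted p under 0.05. Of the PAR bZIP targets (right) 10 are filled and all 10 lie above 0, and Fgf21 at -1.48 is the filled gene below 0 among the REV-ERB and ROR targets (middle).

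Of 14 other genes known to be rhythmic in mouse liver, 10 rose, 1 fell and 3 did not pass. Lonrf3 rose to 5.93 ± 0.823 CPM in title number 2, against 1.57 ± 0.435 CPM in title number 1 (1.93 ± 0.16, adjusted p = 4.67e-05). Nampt, the rate-limiting enzyme of NAD salvage, had 173 ± 27.7 CPM in title number 2 and 70.1 ± 28.0 CPM in title number 1 (1.40 ± 0.16, adjusted p = 0.000277). Ccrn4l, which encodes nocturnin, rose by 1.84 ± 0.31, the lipid phosphatase gene Lpin1 by 1.63 ± 0.45, Tsc22d3 by 1.31 ± 0.19, the transferrin receptor gene Tfrc by 1.01 ± 0.21, Fkbp5 by 0.95 ± 0.19 and the cell cycle kinase gene Wee1 by 0.82 ± 0.21. The uridine phosphorylase gene Upp2 rose by 1.27 ± 0.41 (adjusted p = 0.0323), a call lost without HFHS 7, LFLS 2, LFLS 3, LFLS 6 or LFLS 7. Usp2, a deubiquitinase gene, rose by 0.98 ± 0.32 (adjusted p = 0.0346), a call lost without HFHS 4, LFLS 2, LFLS 3, LFLS 4, LFLS 6 or LFLS 7. Rgs16, a regulator of G protein signalling, fell by 2.05 ± 0.62 (adjusted p = 0.0255), a call lost without LFLS 7.

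Of 11 genes of feeding and fasting, 7 rose, 0 fell and 4 did not pass. Fgf21, described above as a liver hormone of fasting, fell (log2 change -1.48). It is counted among the REV-ERB and ROR targets and not in this list. The gluconeogenic genes Pck1 and G6pc, the binding protein gene Igfbp1, the kinase gene Pdk4 and the tyrosine aminotransferase gene Tat rose by 0.84 ± 0.15, 0.82 ± 0.17, 1.99 ± 0.26, 1.18 ± 0.26 and 1.46 ± 0.20. Angptl4 rose by 0.48 ± 0.14 (a call lost without LFLS 7), and the serine dehydratase gene Sds by 0.69 ± 0.23 (called in 5 of the 14 fits, those without HFHS 1, 2, 5, 7 or LFLS 1). Of 9 genes induced by glucocorticoids, 7 rose: Tsc22d3, Fkbp5, Per1 and Tat as above, Sgk1 by 0.54 ± 0.12, Zbtb16 by 2.37 ± 0.44 and Mt2 by 1.73 ± 0.50 (a call lost without LFLS 7). Genes that several lists share are counted in each.

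Between the diets 4 genes of these lists passed, to be read against the 2.81% of all genes called. Of the 16 PAR bZIP targets, 2 were higher in HFHS and 14 did not pass. Cyp2b10 had 4.81 ± 4.04 CPM in HFHS and 0.607 ± 0.472 CPM in LFLS (SD, n = 7 each), without overlap, a log2 difference of 3.02 ± 0.57 (adjusted p = 0.0140) that was called in all 14 fits that leave out 1 library. Acot4 had 98.0 ± 38.3 CPM in HFHS and 45.5 ± 16.9 CPM in LFLS (1.11 ± 0.28, adjusted p = 0.0451), a call that stood only without HFHS 3 or LFLS 6. In the core loop Fbxl21 was the 1 of 11 that passed, with 6.66 ± 0.791 CPM in HFHS and 4.17 ± 0.908 CPM in LFLS (0.67 ± 0.15, adjusted p = 0.0259), a call lost without HFHS 2, HFHS 7 or LFLS 7. Among the cofactors Onecut1, the factor HNF6 to which REV-ERBα can be tethered in mouse liver, had 14.0 ± 11.1 CPM in HFHS and 60.3 ± 43.1 CPM in LFLS (-2.10 ± 0.52, adjusted p = 0.0439), a call that stood only without HFHS 3, LFLS 1 or LFLS 2. The 4 other lists had 0 called genes in edgeR. At an unadjusted p under 0.05, 6 of 14 REV-ERB and ROR targets, 4 of 14 other rhythmic genes, 5 of 11 feeding and fasting genes and 1 of 9 glucocorticoid genes passed, against 19.6% of all genes. By adjusted p, DESeq2 called 3, 2, 1 and 0 of them in the same order of lists, against 7.3% of all genes, and limma voom 2, 6, 0 and 0, against 19%. Cyp7b1 (-1.30 ± 0.38, adjusted p = 0.0760) and Pck1 (-0.83 ± 0.26, adjusted p = 0.0912) came closest among the REV-ERB targets and the fasting genes. Further genes with some of the smaller p of their lists, none of them called, included Tspan4 (-0.47, adjusted p = 0.0687), Wee1 (0.95, adjusted p = 0.0872), Apoa1 (-0.54, adjusted p = 0.0892) and Acot3 (1.81, adjusted p = 0.0965). Farther from the threshold were Csnk1d (-0.27, adjusted p = 0.104), Elovl3 (-0.99, adjusted p = 0.115), Gsta3 (0.52, adjusted p = 0.118), Sds (-0.84, adjusted p = 0.126) and Arntl (-1.14, adjusted p = 0.150).

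Mice of the same diet and title number still differed from each other, and 1 of the 36 pairs of the 9 genes moved together among them. After each group's mean log2 CPM was subtracted, Dbp and Tef correlated with Pearson's r = 0.88 and Spearman's rho = 0.86 over 14 mice (exact permutation of mice within the 4 groups, two-sided, adjusted p = 0.0191 for r and 0.0243 for rho over 36 pairs). Without the 2 mice farthest from the median of Dbp r was 0.80. Both genes were high in LFLS 1 and LFLS 6 and low in LFLS 4 and LFLS 5, and the HFHS mice lay between them. The call stood in 4 of the 14 sets that leave out 1 mouse (without HFHS 1, HFHS 3, HFHS 4 or LFLS 3), with the highest adjusted p, 0.182, without LFLS 5. Nr1d1 and Dbp followed with r = 0.81 and rho = 0.75 (exact permutation, adjusted p = 0.112 for r and 0.247 for rho), and r was 0.63 without the 2 most extreme mice. Dbp and Nfil3, of opposite action on D-boxes, had r = -0.51 and rho = -0.45 (exact permutation, adjusted p = 0.521 for r and 0.799 for rho).

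**Figure D5:**
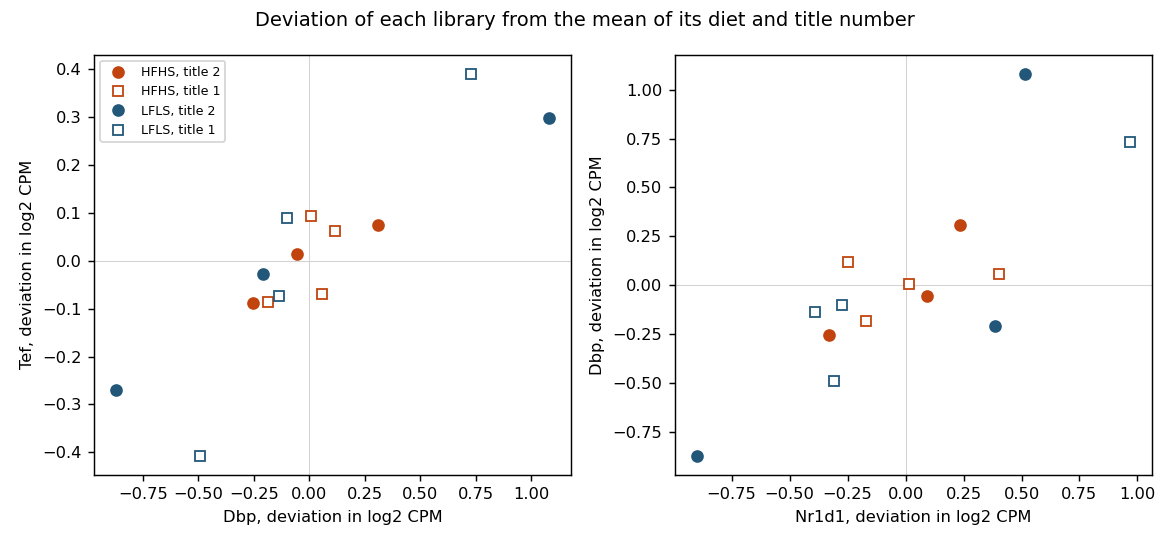
Deviation of each mouse's log2 CPM from the mean of its diet and title number, for Tef (vertical) against Dbp (horizontal) on the left and for Dbp (vertical) against Nr1d1 (horizontal) on the right, with filled symbols for title number 2 and open ones for title number 1. Dbp and Tef rise together (r = 0.88), with LFLS mice at both ends, and Nr1d1 and Dbp do so less closely (r = 0.81).

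By Pearson's r of log2 CPM over the 14 libraries without any centring, and given as a description since the points share diet and title number, the genes most like Nr1d1 were Thra (r = 0.98), with which it shares exon sequence, Slc12a5 and Scly (both r = 0.97). Those most like Dbp were Mid1ip1 (0.95), Tbx2 (0.94) and Gm14493 (0.94), and most like Bhlhe41 were Gltscr2, Dgkq and Znhit2-ps (each 0.93). Rora was most like Gm17484 (0.96), Bag4 and Usp15 (both 0.95), Nr1d2 most like Slc35a5 (0.97), Trnau1ap and Klhl9 (both 0.96), and Nfil3 most like 1500003O03Rik (0.93), Cyp4f17 and Mug1 (both 0.92). For Tef they were Xrcc6bp1 (0.94), Cnn3 (0.92) and Gm14378 (0.88), for Hlf SNORA26 (0.91), Ppp3ca (0.89) and Ahr (0.88), and for Bhlhe40 Fam129b (0.87), Nudt13 (0.86) and F730035M05Rik (0.85).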

How the data were processed

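Polyadenylated liver RNA from 14 mice was sequenced on a HiSeq2000 as single reads of 50 bases, per the labels' protocols. CASAVA 1.8, Bowtie, TopHat, DESeq and build mm9 are named in the submitters' processing notes, and how reads were counted, and on which annotation, is not given in the sources used. The authors' deposited count table holds whole-number counts per gene. The lowest count is 1, and 11120 genes have it in every library. The authors' deposited results table, which holds DESeq mean signals, a fold ratio, its log2 value and p-values, per the file headers, was used only to pair identifiers with symbols, and 105 identifiers had none. Groups were taken from the labels, which do not say that each sample is a separate mouse; where samples share one, p-values measure only the spread between samples.

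Genes were filtered by filterByExpr with diet as the group, counts were scaled by TMM, and edgeR 4.0.16 (R 4.3.3) quasi-likelihood tests were run on all 17223 genes kept, for HFHS against LFLS, for title number 2 against 1 with diet as a covariate, and for the interaction of both, with Benjamini-Hochberg adjustment and a threshold of 0.05. The tests for diet and for title number were checked on simulated counts that held only the effect tested. The diet check thus held no title number effect, unlike these data. Limma 3.58.1 (voom with quality weights), DESeq2 1.42.0, other scalings and filters, subsets and leaving out each library were alternatives. Log2 CPM used a prior count of 2. Correlations were tested by exact permutation within the 4 groups (scipy 1.17.1, 20736 permutations, smallest possible p 4.82e-05). Library totals, 18219257 to 52826695 counts, limit precision, and counts of low genes such as Bhlhe41 vary most.

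The members and gene lists were chosen with earlier results of these data known. Named list genes are all that were called and up to 4 per list with the smallest p in either comparison; Hdac3, Cyp8b1, Insig2 and Apoc3 were added after their values were seen. A few genes of the lists are not reported here and were left out of the counts. The 3 genes most like each member were named by Pearson's r. Promoter sequences are RefSeq's, of build GRCm38.p6, matched by symbol for 8 of the 9 genes, and gene positions and exon overlaps are from GENCODE M21.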

Additional observations from a re-analysis of the deposited data

Results flagged for a closer look

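Of 54 groups of 4 to 8 values examined, 5 held a library that stood apart from its group by Dixon's test, where chance gives about 5%, and the groups overlap in their libraries. Nr1d1 in LFLS 1, at 242 CPM, stood apart from the other LFLS mice, from the other mice of title number 1, and from the other LFLS mice of title number 1, where the next value was 102 CPM. Bhlhe41 in LFLS 1, at 12.3 CPM, stood apart among title number 1, and Bhlhe41 in LFLS 6, at 4.89 CPM, among title number 2. LFLS 1 also had the lowest mitochondrial share of counts, 1.39%, whose part in these values was not tested.

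The diet difference of Nr1d2 was not the same in the title numbers: its log2 value was lower in title number 2 than in title number 1 by -0.71 ± 0.13 (edgeR interaction, adjusted p = 0.0397). In title number 2 Nr1d2 had 139 ± 10.6 CPM in HFHS and 144 ± 15.7 CPM in LFLS (SD, n = 3 each), and in title number 1 143 ± 5.40 CPM in HFHS and 91.0 ± 5.70 CPM in LFLS (SD, n = 4 each). The 4 LFLS mice of title number 1 also had the 4 lowest mitochondrial shares, 1.39% to 3.77%, and the 4 highest Kupffer cell sums, 410 to 436 CPM, whose part was not tested.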

How the results depend on the processing

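HFHS against LFLS called 484 genes, 1258 with DESeq2, 3274 with limma voom, 173 without a filter, 1540 with the title number as a replicate block, 1484 in title number 1 alone, 269 in title number 2 alone, and 133 (without HFHS 2) to 853 (without LFLS 6) when 1 library was left out. Of the 9 genes it called 0, but 2 with limma voom, 1 with either replicate block (Nfil3, -0.71 with title number and -0.72 with title pairs, which called 598 genes), 2 in title number 1 alone, and 0 in all 14 leave-outs. Each title pair joins an HFHS and an LFLS title with the same first number and the same letters. Such pairs did not all deviate together (correlations of -0.07 to 0.41), and they rest on the titles alone. The title remainder is the digit and letters that follow the first number. Title number 2 against 1 called 4953 genes, 3125 with the title remainder as a replicate block, 107 in HFHS alone, and 2778 (without LFLS 7) to 5514 (without HFHS 5) in leave-outs. It called 7 of the 9 genes, 3 in HFHS alone and 5 to 7 in leave-outs. Without LFLS 1 and LFLS 2 together, an alternative chosen after seeing the data, it called 5 of the 9, against 3589 of the 17527 genes tested. The interaction called 152 genes, 1495 with DESeq2, 3586 with limma voom, 46 with library totals, 2 without a filter, and 0 (without HFHS 5, by edgeR, with 2746 at an unadjusted p under 0.05) to 1267 (without LFLS 4) in leave-outs. Of the correlated pairs, 1 was called, 12 with only the diet means subtracted, and 0 to 2 in leave-outs.

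The log2 diet difference turned its sign in title number 2 alone for Nr1d1 (0.57), Nr1d2 (-0.050) and Rora (-0.13), and the leave-outs ran from -0.0038 to 0.153 for Rora. The title change turned for Nr1d2 in HFHS alone (-0.039), and for Tef with library totals (-0.10), without a filter (-0.071), in HFHS alone (-0.078), and in leave-outs (-0.047 to 0.083). The interaction turned for Hlf with limma voom (0.084), for Bhlhe40 without a filter (-0.057), and in leave-outs for Dbp (-0.090 to 0.99), Hlf (-0.22 to 0.013), Bhlhe40 (-0.12 to 0.13) and Bhlhe41 (-0.41 to 0.35). None of these reversed values had passed the test except Nr1d2 for the title number. The cause was not tested. In all, single genes kept side and direction in 214 of 225 comparisons with an alternative for diet, 191 of 234 for title number and 161 of 189 for the interaction.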
